A study of Mus musculus with 8 samples.

Results

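Primary epidermal cells of newborn mouse pups (p0-p1), either Dlx3 wild type or Dlx3 knockout, were compared after both had received an adenovirus that carries Dlx3 (AdDlx3). The comparison holds 4 of the 8 polyadenylated RNA libraries of the study, 2 from wild-type cells with AdDlx3 and 2 from knockout cells with AdDlx3, joined into 2 pairs by replicate number. It covers the 11855 of 26202 listed genes that reached 1 RPKM (reads per kilobase of a gene, relative to the size of the library) in at least 2 of these 4 libraries. The other 4 libraries, 2 of each genotype with a virus that carries green fluorescent protein (AdGFP), serve as the same genotype comparison without added Dlx3. In all groups the epidermis had been dissected, the cells plated, and the virus added after 24 hours, per the labels' protocols. The labels call the material primary cultured cells from transgenic mice and name no sorted cell type. The sources used here do not say which part of Dlx3 the knockout lacks, whether a Cre line was used, or whether replicates came from separate pups; p-values are therefore only about the spread among these samples, part of which may be technical.

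Dlx3 is a homeodomain transcription factor of the differentiating layers of the epidermis and of the hair follicle, and a regulator of terminal keratinocyte differentiation. Cultures made from newborn epidermis hold mostly keratinocytes, and also melanocytes, the neural crest-derived pigment cells, whose melanin is made by enzymes of the tyrosinase family inside organelles called melanosomes. MITF, the main transcription factor of the melanocyte lineage, binds a short element called the M-box in promoters of pigment genes.

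Dlx3 RNA amounted to 237 and 782 RPKM in the 2 wild-type AdDlx3 libraries (replicates 1 and 2) and at 402 and 539 RPKM in the knockout AdDlx3 libraries. The knockout library thus held more Dlx3 RNA than its wild-type partner in pair 1 and less in pair 2, by log2 differences of 0.76 and -0.54. Their mean, 0.11 ± 0.26 (standard error, as for every log2 difference below), did not pass (limma adjusted p = 0.961), and its 95% interval ran from -0.51 to 0.74. Under AdGFP, wild-type cells held 1.71 and 1.77 RPKM of Dlx3 and knockout cells 0.656 and 0.558 RPKM. The values under AdDlx3 may join viral and endogenous transcripts of the gene (chromosome 11, 95120119 to 95125296, GRCm38).

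The deposited counts of alignments ran from 73688944 to 96234509 over the 4 AdDlx3 libraries, whose partners correlated across genes at r = 0.99 in both pairs on the log2 scale. The pairs themselves stood apart: the 9 keratinocyte markers summed to 8470 RPKM in wild-type and 6880 RPKM in knockout replicate 1, but to 855 and 1110 RPKM in replicate 2, against 11100 to 17200 RPKM over the AdGFP libraries. Abundant keratins carry this sum (Krt5 4260 and 221 RPKM in wild type), and Itga6, on the same list, read 97.6 and 138 RPKM. The sum was thus far lower in both replicate 2 AdDlx3 libraries, which the deposited sample sheet puts in batch B (replicate 1 in batch A), and results are given for each pair. No exact test of a single value can pass here, since the smallest exact two-sided permutation p for 2 against 2 libraries is 0.333.

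Under AdDlx3 the genotypes differed little over the whole table. Only 2 of 11855 genes passed an adjusted p under 0.05 in limma, 0.0169% of those tested: Ifi27l2b rose in knockout and Pmel fell. Both calls need the pairing by replicate number: with no replicate block limma called 0 genes and 45 had an unadjusted p under 0.05, and both calls were also lost with a pseudocount of 0.1 RPKM (adjusted p = 0.16 and 0.105) or with median-of-ratios scaling (0.0683 each). Differences of 2-fold or more in either direction were seen for 17 genes, 0.143%, those 2 included. The median gene differed by 0.00 on the log2 scale, with a standard deviation over genes of 0.27 in pair 1 and 0.20 in pair 2, and the 2 pairs' differences correlated across genes at r = 0.16, given as a description. An unadjusted limma p under 0.05 was reached by 709 genes, 5.98%. Libraries of the 2 genotypes did not overlap for 752 genes higher in knockout (6.34%) and 868 lower (7.32%), and both pairs pointed the same way for 27.3% of genes up and 28% down. These shares are the background for every list below.

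Ifi27l2b (chromosome 12, 103450898 to 103457223) belongs to a family of interferon-responsive genes. It read 0.348 and 1.94 RPKM in wild-type cells with AdDlx3 against 3.03 and 7.09 RPKM in knockout cells. Both knockout libraries lay above both wild-type libraries. The log2 difference was 1.85 ± 0.15 (limma adjusted p = 0.0472; 2.06 in pair 1 and 1.64 in pair 2), which corresponds to 3.60-fold on the log2(RPKM + 0.5) scale.

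The same order was seen without added Dlx3, in other libraries: with AdGFP, Ifi27l2b read 0.115 and 0.282 RPKM in wild-type cells against 1.55 and 1.78 RPKM in knockout cells, a difference of 1.64 ± 0.15. Genotype differences under the 2 viruses were not shown to differ for this gene (0.21 ± 0.22, limma adjusted p = 0.726). Its relatives, a list chosen after the values were seen, did not separate the genotypes: Ifi27 read 34 and 18 RPKM in wild-type and 54.7 and 14.1 RPKM in knockout AdDlx3 cells. The 19 interferon-stimulated genes tested had 0 calls in limma and 1 unadjusted p under 0.05 (Irf1, -0.26), and their median was 0.39 in pair 1 and -0.47 in pair 2. Since family members are similar in sequence and the counting rules are not given, a split of reads among them cannot be told apart from a difference of Ifi27l2b.

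Among the lists with at least 5 tested genes, melanocyte markers had the lowest median. Pmel (chromosome 10, 128704195 to 128720238) encodes the fibril-forming protein of the melanosome. Its level was 129 and 83.7 RPKM in wild-type cells with AdDlx3 and 62.0 and 39.6 RPKM in knockout cells. All 4 values were ordered by genotype, and the difference was alike in both pairs, -1.05 and -1.07. Its mean of -1.06 ± 0.09 passed (limma adjusted p = 0.0472) and left knockout at 48.0% of wild type. Without the replicate 1 library of wild-type or of knockout AdDlx3 cells the estimate rests on pair 2 and the call was lost (limma adjusted p = 0.0911 and 0.0887).

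Of the 10 melanocyte markers, all tested, Pmel alone was called; 9 of 10 had an unadjusted limma p under 0.05 on the lower side, where 2.61% of all genes did, and 8 of 10 had knockout libraries below both wild-type libraries. The median of the list was -0.81, at -0.76 in pair 1 and -0.79 in pair 2, against 0.00 over all genes. The summed level of the 10 markers was 425 and 325 RPKM in wild-type AdDlx3 cells and 238 and 170 RPKM in knockout AdDlx3 cells. In bulk RNA, fewer melanocytes and less pigment RNA per melanocyte cannot be told apart.

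**Figure D1:**
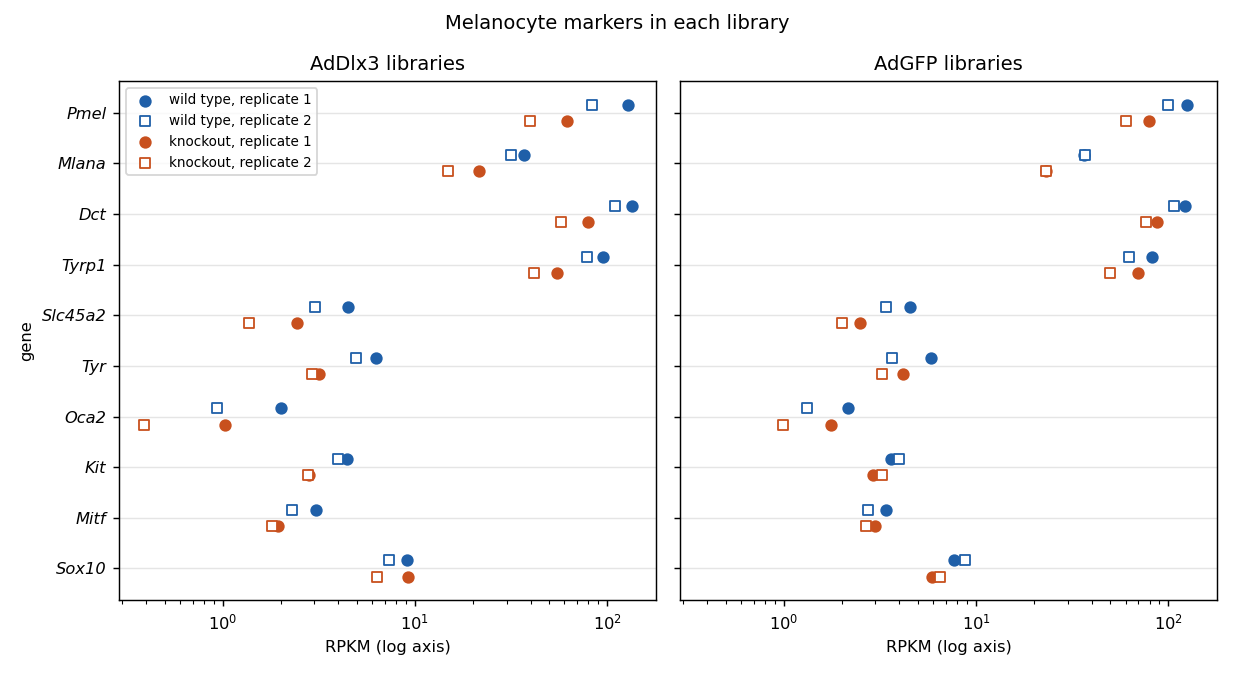
RPKM of the 10 melanocyte markers (log axis) in each of the 4 AdDlx3 libraries (left) and the 4 AdGFP libraries (right); points are single libraries, coloured by genotype, with replicate 1 filled and replicate 2 open. Under AdDlx3 both knockout libraries of Pmel (62.0 and 39.6) lie below both wild-type libraries (129 and 83.7), whereas those of Sox10 overlap.

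The enzymes of melanin synthesis were lower in knockout by similar amounts. Dct, which encodes dopachrome tautomerase, read 135 and 109 RPKM in wild-type and 79.1 and 57.8 RPKM in knockout AdDlx3 cells, a difference of -0.84 ± 0.10 (limma adjusted p = 0.108). Tyrp1, tyrosinase-related protein 1, read 94.7 and 78.2 RPKM against 54.9 and 41.8 RPKM (-0.84 ± 0.09, limma adjusted p = 0.108). Tyr, the rate-limiting tyrosinase itself, was far lower in level, at 6.24 and 4.93 RPKM against 3.17 and 2.92 RPKM (-0.77 ± 0.13, limma adjusted p = 0.261). For each of the 3 enzymes the genotypes did not overlap, and none passed over all genes.

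Genes for proteins of the melanosome and of its ion balance were lower as well. Mlana, a melanosomal membrane protein gene, read 37.1 and 31.5 RPKM in wild-type and 21.6 and 14.9 RPKM in knockout cells (-0.91 ± 0.11). Slc24a5, a cation exchanger gene of the pigment cell, is not on the marker list and was named for its non-overlapping libraries, 19.4 and 16 RPKM against 10.2 and 8.16 RPKM (-0.92 ± 0.11). The transporter gene Slc45a2 read 4.49 and 3.04 RPKM against 2.42 and 1.37 RPKM (-0.84 ± 0.12). Oca2, whose product sets melanosome pH, overlapped between genotypes at 2.01 and 0.929 against 1.02 and 0.388 RPKM, but was lower within each pair (-0.72 and -0.69).

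Regulators of the lineage had smaller differences. Kit, the receptor for stem cell factor, read 4.42 and 4.0 RPKM in wild-type and 2.83 and 2.78 RPKM in knockout AdDlx3 cells (-0.51 ± 0.12). Mitf read 3.06 and 2.30 RPKM against 1.95 and 1.80 RPKM (-0.41 ± 0.13). Sox10, a neural crest factor that melanocytes share with Schwann cells, was the 1 marker whose pairs disagreed, at 9.05 and 7.33 RPKM against 9.16 and 6.33 RPKM; its difference of -0.09 had a 95% interval from -0.35 to 0.17. The 7 Schwann cell markers summed to 31.0 and 26.7 RPKM in wild-type and 28.8 and 23.8 RPKM in knockout cells.

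Further genes used by pigment cells, a list drawn up after the values were seen and so given as description, had 7 of 9 tested members lower without overlap. Gpnmb, a melanosomal glycoprotein gene, read 54.7 and 45.0 RPKM in wild-type and 32.0 and 27.5 RPKM in knockout cells (-0.73 ± 0.09). Mc1r, the melanocortin receptor gene, read 4.98 and 3.47 RPKM against 3.27 and 2.04 RPKM. Ednrb, the endothelin receptor gene of the lineage, read 2.02 and 1.63 RPKM against 1.14 and 0.758 RPKM. The vesicle-trafficking genes Rab38 (-0.21) and Rab27a (-0.04) overlapped between genotypes.

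Promoter sequence of pigment genes is shown because these members were lower together and several hold the M-box core TCATGTG (reverse complement CACATGA), searched on both strands in windows from 250 bases before to 50 bases after the gene start in RefSeq (GRCm38.p6). Of the 10 melanocyte markers 6 matched the promoter table, and 3 of those (Dct, Tyr and Tyrp1) held the core, which 3.77% of all 32851 windows hold. Of the 12 genes named below as lower 6 matched and 4 held it (Dct, Slc24a5, Tspan10 and Tyrp1), and the melanocyte and lower sets share members. Of the 12 named as higher 7 matched and 0 held it, which at a share of 3.77% is the usual outcome and sets nothing apart. Counts in these sets are of genes, whereas the share is of windows. The bases before the start of 3 of these genes are given 5′ to 3′ on the strand of the gene, with the core in capitals, for Tyr at chr7:87493513-87493762 (minus strand), Dct at chr14:118052247-118052496 (minus strand) and Slc24a5 at chr2:125067877-125068123 (plus strand).
Tyr: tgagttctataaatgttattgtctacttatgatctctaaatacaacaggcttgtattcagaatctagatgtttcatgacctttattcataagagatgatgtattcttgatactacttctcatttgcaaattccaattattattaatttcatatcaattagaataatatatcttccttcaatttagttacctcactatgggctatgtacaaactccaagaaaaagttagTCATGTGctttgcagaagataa
Dct: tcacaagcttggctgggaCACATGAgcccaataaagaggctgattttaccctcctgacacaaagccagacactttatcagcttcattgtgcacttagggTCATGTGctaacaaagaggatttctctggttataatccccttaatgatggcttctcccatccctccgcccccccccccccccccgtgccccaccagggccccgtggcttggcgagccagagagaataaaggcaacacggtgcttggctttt
Slc24a5: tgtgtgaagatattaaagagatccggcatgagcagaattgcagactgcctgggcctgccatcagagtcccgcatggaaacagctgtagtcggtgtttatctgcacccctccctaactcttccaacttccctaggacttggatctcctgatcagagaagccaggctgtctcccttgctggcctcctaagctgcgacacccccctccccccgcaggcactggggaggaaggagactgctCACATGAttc
The core began 22 bases before the start in Tyr, 232 and 151 bases before it in Dct, and 13 bases before the RefSeq start in Slc24a5, whose sequence ends 3 bases short of that start, at the base before the GENCODE start. A match of letters is a description of the sequence and not evidence of a bound factor. The homeodomain core TAATTG, which 8% of windows hold on either strand, occurred in 2 of the 6 matched melanocyte markers (Dct and Tyr).

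The same pigment genes were lower in knockout under AdGFP, in libraries of the same batches that do not enter the AdDlx3 differences. The AdGFP libraries do enter the shared variance estimate behind the AdDlx3 standard errors and p-values. All 10 markers were lower in both AdGFP pairs, where 30.7% of all genes were, and 6 of 10 did not overlap, where 14.1% did. The list median was -0.33, smaller in size than the -0.81 under AdDlx3, and 9 of 10 markers had the larger negative difference under AdDlx3. Pmel read 125 and 99.6 RPKM in wild-type AdGFP and 79.2 and 60.3 RPKM in knockout AdGFP (-0.68 ± 0.09, limma adjusted p = 0.164). That the difference depends on the virus was not shown for any gene: the interaction of genotype and virus had 0 calls among 11855 genes in limma (0%), with 1058 at an unadjusted p under 0.05 (8.92%), and for Pmel it was -0.38 ± 0.13 (limma adjusted p = 0.557).

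Of 7 sex-linked genes tested limma called 0; 4, all Y-linked, had an unadjusted p under 0.05 on the lower side, and 3 were lower without overlap. Y-linked Eif2s3y read 10.2 and 13.6 RPKM in wild-type and 7.81 and 6.92 RPKM in knockout AdDlx3 cells, and Ddx3y read 6.02 and 13.4 RPKM against 4.84 and 6.29 RPKM. Xist, transcribed from the inactive X chromosome, read 14.5 and 15.6 RPKM against 12.1 and 34.3 RPKM. Under AdGFP the values of 3 of these 4 overlapped between genotypes (Kdm5d did not), with Eif2s3y at 8.42 and 7.56 against 8.95 and 5.77 RPKM. Xist and Y-linked RNA were thus present in every library, in shares that differed most between genotypes in pair 2, and their part in the other differences was not tested.

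Among genes higher in knockout after Ifi27l2b, genes of the contractile cytoskeleton and the matrix were named by a rule that takes the genes whose libraries do not overlap in order of the smaller of their 2 pair differences. Acta2, smooth muscle actin, read 48.9 and 43.2 RPKM in wild-type and 131 and 80.2 RPKM in knockout AdDlx3 cells (1.15 ± 0.23, limma adjusted p = 0.396). Myl9, a myosin regulatory light chain gene, read 19.0 and 74.8 RPKM against 94.1 and 130 RPKM (1.54 ± 0.37; 2.28 in pair 1 and 0.80 in pair 2). Cnn1, calponin, was low throughout, at 0.547 and 0.983 RPKM against 3.39 and 1.79 RPKM (1.26 ± 0.41). Fn1, fibronectin, read 37.3 and 34.5 RPKM against 68.4 and 68.1 RPKM (0.92 ± 0.20, limma adjusted p = 0.417), the most even of these between pairs.

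The list of matrix genes and genes that respond to the coactivator YAP had 0 of 15 tested members called in limma, 6 with an unadjusted p under 0.05 on the higher side (3.37% of all genes) and 4 higher without overlap. Its median was 0.20, from 0.38 in pair 1 and 0.18 in pair 2. Ccn1, a matricellular YAP target, read 103 and 157 RPKM in wild-type and 216 and 230 RPKM in knockout cells (0.81 ± 0.14). Thbs1, thrombospondin, read 121 and 52.3 RPKM against 161 and 132 RPKM (0.87 ± 0.20). Tnc and Ccn2, a tenascin and a further YAP target, were higher in both pairs but overlapped between them, with mean differences of 0.70 and 0.55.

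Of 16 contractile and actin-linked genes, again a list made after the values were seen, 15 were higher in both pairs and 7 did not overlap, with a median of 0.48 (0.44 under AdGFP). Tagln, transgelin, read 51.5 and 20.1 RPKM in wild-type and 107 and 43.4 RPKM in knockout cells, with nearly equal pair differences of 1.05 and 1.09. Srf, a transcription factor of contractile genes, read 26.8 and 52.3 RPKM against 35.0 and 73.5 RPKM (0.43 ± 0.10). Under AdGFP, Acta2 differed by 1.13 and Tagln by 1.53, whereas Srf differed by -0.09.

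Markers of cells that could carry such genes moved unevenly beside them. Of the 7 fibroblast markers tested out of 10, 0 were called and 3 had an unadjusted limma p under 0.05 on the higher side, led by Thy1 (12.4 and 28.3 against 27.3 and 42.5 RPKM), while Vim (-0.17) and Dcn (-0.40) were lower. The 10 markers summed to 86.6 and 101 RPKM in wild-type and to 105 and 109 RPKM in knockout AdDlx3 cells, and none was at 0 in all 4 of these libraries. The 6 skeletal muscle markers summed to 5.05 and 3.43 RPKM against 5.65 and 3.10 RPKM. Of the 5 simple epithelial and Merkel cell markers tested, 2 had an unadjusted limma p under 0.05 on the higher side, Krt19 (2.01 and 9.97 against 3.32 and 14.5 RPKM) and Krt18. On this list 4 were higher in both pairs, and Krt20 was lower in both (1.18 and 0.511 against 1.06 and 0.312 RPKM). The part of these cells in the contractile and matrix differences was not tested.

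The other genes named as higher had varied roles. Ggt1, a gamma-glutamyltransferase of glutathione turnover, read 2.49 and 1.63 RPKM in wild-type and 8.66 and 3.62 RPKM in knockout AdDlx3 cells (1.28 ± 0.18, limma adjusted p = 0.175). It was near 0 under AdGFP in both genotypes, at 0.0385 to 0.243 RPKM. Has3, a hyaluronan synthase gene (1.95 and 2.75 against 3.78 and 5.45 RPKM), Frem2, a basement membrane protein gene (4.91 and 7.85 against 9.78 and 12.3 RPKM), and Pole, the catalytic subunit of DNA polymerase epsilon (9.84 and 12.5 against 16.2 and 20.0 RPKM), were higher by 0.84, 0.77 and 0.68. Chst12, a chondroitin sulfotransferase gene, and Kcnf1, a potassium channel subunit gene, were higher by 0.68 and 0.67. Mir8098 (0.506 and 0.376 against 2.23 and 1.15 RPKM) lies within Wdfy2 on the same strand, so reads of the 2 cannot be told apart; Wdfy2 itself differed by -0.10, and Mir8098 differed by -1.12 under AdGFP.

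**Figure D2:**
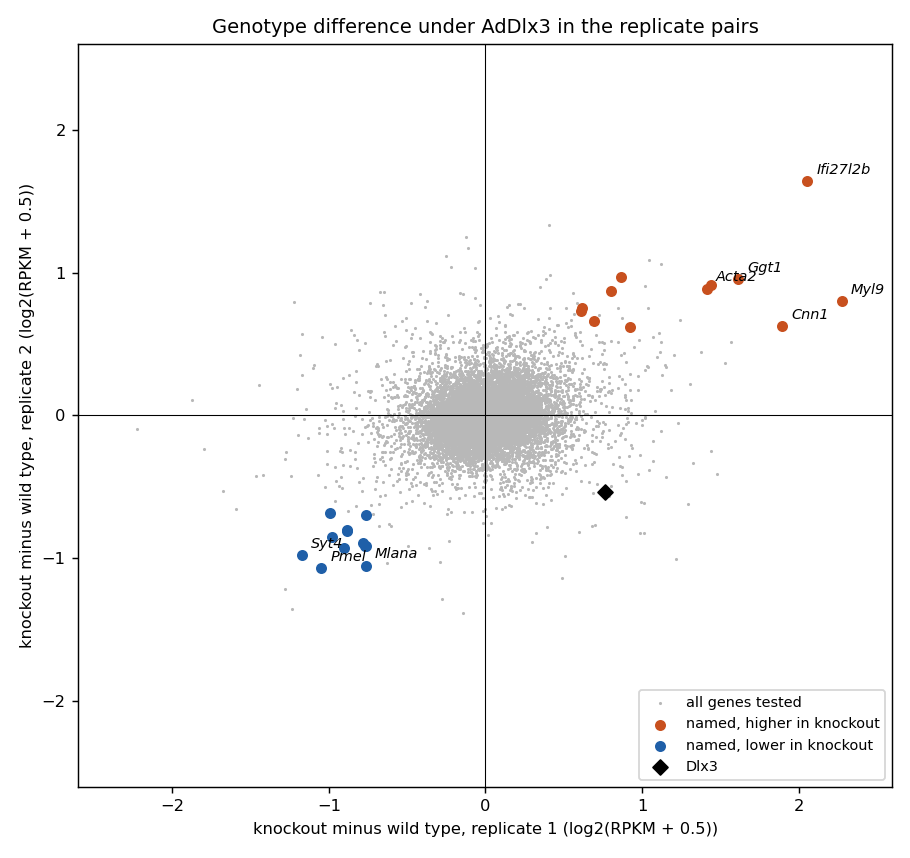
Knockout minus wild type under AdDlx3 on the log2(RPKM + 0.5) scale in the replicate 1 pair (horizontal) and the replicate 2 pair (vertical) for the 11855 genes tested (grey), the 12 genes named as higher, the 12 named as lower, and Dlx3. The named genes lie away from the origin in both pairs by the rule that chose them, whereas Dlx3 sits at 0.76 in pair 1 and -0.54 in pair 2.

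The other protein-coding genes named as lower were Syt4, Slc6a17 and Tspan10. Syt4, a synaptotagmin of vesicle release, read 3.38 and 2.92 RPKM in wild-type and 1.22 and 1.24 RPKM in knockout AdDlx3 cells (-1.07 ± 0.14, limma adjusted p = 0.120). Slc6a17, a synaptic vesicle amino acid transporter gene, read 3.49 and 2.52 RPKM against 1.5 and 1.38 RPKM (-0.84 ± 0.13). Tspan10, a tetraspanin gene that is also on the list of further pigment cell genes, read 2.79 and 1.55 RPKM against 1.28 and 0.675 RPKM (-0.84 ± 0.14). All 3 were lower without overlap under AdGFP too, with differences of -0.51, -0.61 and -0.58.

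A pair of small nucleolar RNAs was also named, Snord14c (1.87 and 3.62 against 0.703 and 1.78 RPKM) and Snord32a (2.52 and 2.96 against 1.13 and 1.47 RPKM). They lie inside Hspa8 and Rpl13a on the same strand, so their reads cannot be told from those of the host, which differed by 0.11 and -0.24. Under AdGFP both differed by only 0.01. Noncoding host genes of other small nucleolar RNAs, a list chosen after the values were seen, were lower without overlap in 8 of 10 cases, with a median of -0.40: Gas5 read 252 and 220 RPKM in wild-type and 132 and 157 RPKM in knockout AdDlx3 cells, and Zfas1 read 95.1 and 83.1 RPKM against 55.0 and 57.5 RPKM.

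**Figure D3:**
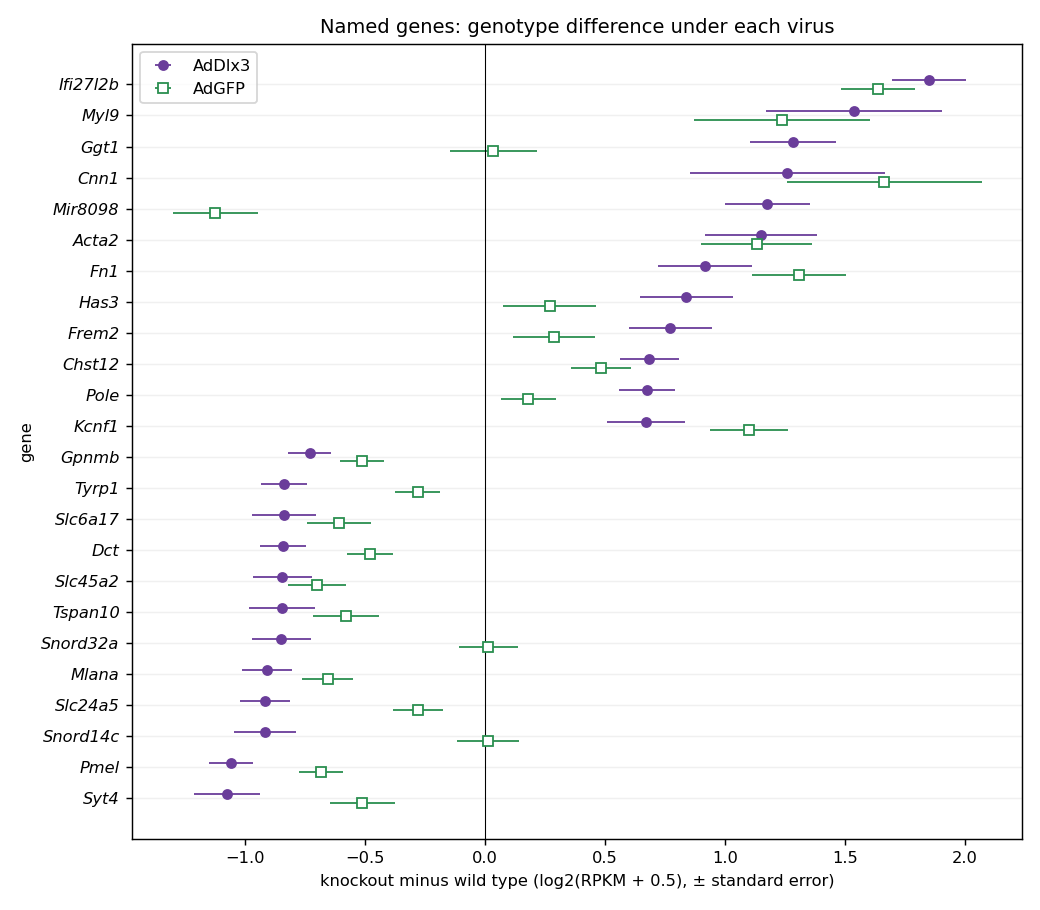
Knockout minus wild type (log2(RPKM + 0.5), mean of 2 pairs ± standard error) for the 24 named genes under AdDlx3 (filled) and AdGFP (open). Pigment genes and contractile genes lie on the same side of 0 under both viruses, whereas Ggt1, Snord14c and Snord32a lie near 0 under AdGFP and Mir8098 lies on the other side.

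The integrated stress response, in which ATF4 raises genes of amino acid supply, was lower in knockout across its list. Of 18 genes tested, 0 were called in limma, 11 had an unadjusted p under 0.05 on the lower side, 17 were lower in both pairs and 6 did not overlap; the median was -0.38. Trib3, a pseudokinase target of ATF4, read 56.9 and 65.1 RPKM in wild-type and 36.4 and 44.2 RPKM in knockout cells (-0.60 ± 0.11, limma adjusted p = 0.345). Ddit3, which encodes the stress factor CHOP, read 75.7 and 64.4 RPKM against 43.7 and 47.5 RPKM (-0.61 ± 0.15). Atf4 itself read 229 and 309 RPKM against 172 and 248 RPKM (-0.37 ± 0.14). Under AdGFP the median of this list was -0.48, with all 18 lower in both pairs, so the direction was shared by both viruses.

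Of 20 cytoplasmic ribosomal protein genes limma called 0, also at an unadjusted p under 0.05, but 16 were lower in both pairs (median -0.22). Without overlap, 4 of the 20 were lower under AdDlx3 and 17 under AdGFP, where 14.1% of all genes were. The AdGFP median was -0.29. Rpl5 read 494 and 434 RPKM in wild-type and 375 and 367 RPKM in knockout cells. Of 20 mitosis genes 0 were called and 0 had an unadjusted p under 0.05, 14 were higher in both pairs, and the median was 0.14. Plk1, the polo-like kinase, read 32.8 and 23.2 RPKM against 38.8 and 27.6 RPKM. Of 24 p53 targets 5 had an unadjusted limma p under 0.05 on the lower side, led by Trp53inp1 (32.2 and 31.3 against 21.2 and 22.2 RPKM; -0.54 ± 0.10, limma adjusted p = 0.328), which differed by -0.02 under AdGFP. Over the p53 list, 4 of 24 were lower and 0 higher without overlap under AdDlx3, where 7.32% and 6.34% of all genes were. Under AdGFP 9 were lower without overlap, where 14.1% of all genes were, and 3 were higher. The list medians were -0.12 and -0.05.

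Inflammation genes had 6 of 21 tested members with an unadjusted limma p under 0.05 on the lower side and 1 on the higher side, with 0 calls. Saa3, an acute-phase serum amyloid gene, read 126 and 24.8 RPKM in wild-type and 53.4 and 9.39 RPKM in knockout AdDlx3 cells (-1.29 ± 0.23; -1.23 and -1.35 by pair). Cxcl10, a chemokine gene, read 3.06 and 3.98 RPKM against 1.74 and 2.52 RPKM (-0.62 ± 0.12). With AdGFP, Saa3 differed by -1.48 and Cxcl10 by -0.59. Without overlap, 2 of the 21 inflammation genes were lower and 0 higher under AdDlx3, where 7.32% and 6.34% of all genes were. Under AdGFP 5 were lower without overlap, where 14.1% of all genes were, and 2 were higher. The list median was -0.27 under AdGFP and -0.16 under AdDlx3. Of 8 immune cell markers 3 were tested and Lyz2, the lysozyme of myeloid cells, was lower (1.25 and 1.06 against 0.0786 and 0.491 RPKM), while Cd68 differed by 0.24; the 8 markers summed to 19.5 and 16.3 RPKM in wild-type and to 22.7 and 17.2 RPKM in knockout cells.

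Several epidermal lists pointed opposite ways in the 2 pairs, which also differ in the order of Dlx3. Small proline-rich genes, which cross-link into the cornified envelope, had a median of -0.60 in pair 1 and 0.22 in pair 2; Sprr2a1 and Sprr2a2, near-identical copies, carry equal values, so reads cannot be assigned between them. Granular and cornified layer genes stood at -0.30 and 0.24, and late cornified envelope genes at -0.11 and 0.45. The sign was the other way round for the heat shock list (0.36 and -0.30), the interferon list above and antigen processing genes (0.37 and -0.18). None of these lists had a call in limma; unadjusted p under 0.05 was reached by 1 of 12 small proline-rich genes, 0 of 20 granular and cornified genes, 0 of 13 late envelope genes, 1 of 14 heat shock genes and 0 of 16 antigen processing genes.

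**Figure D4:**
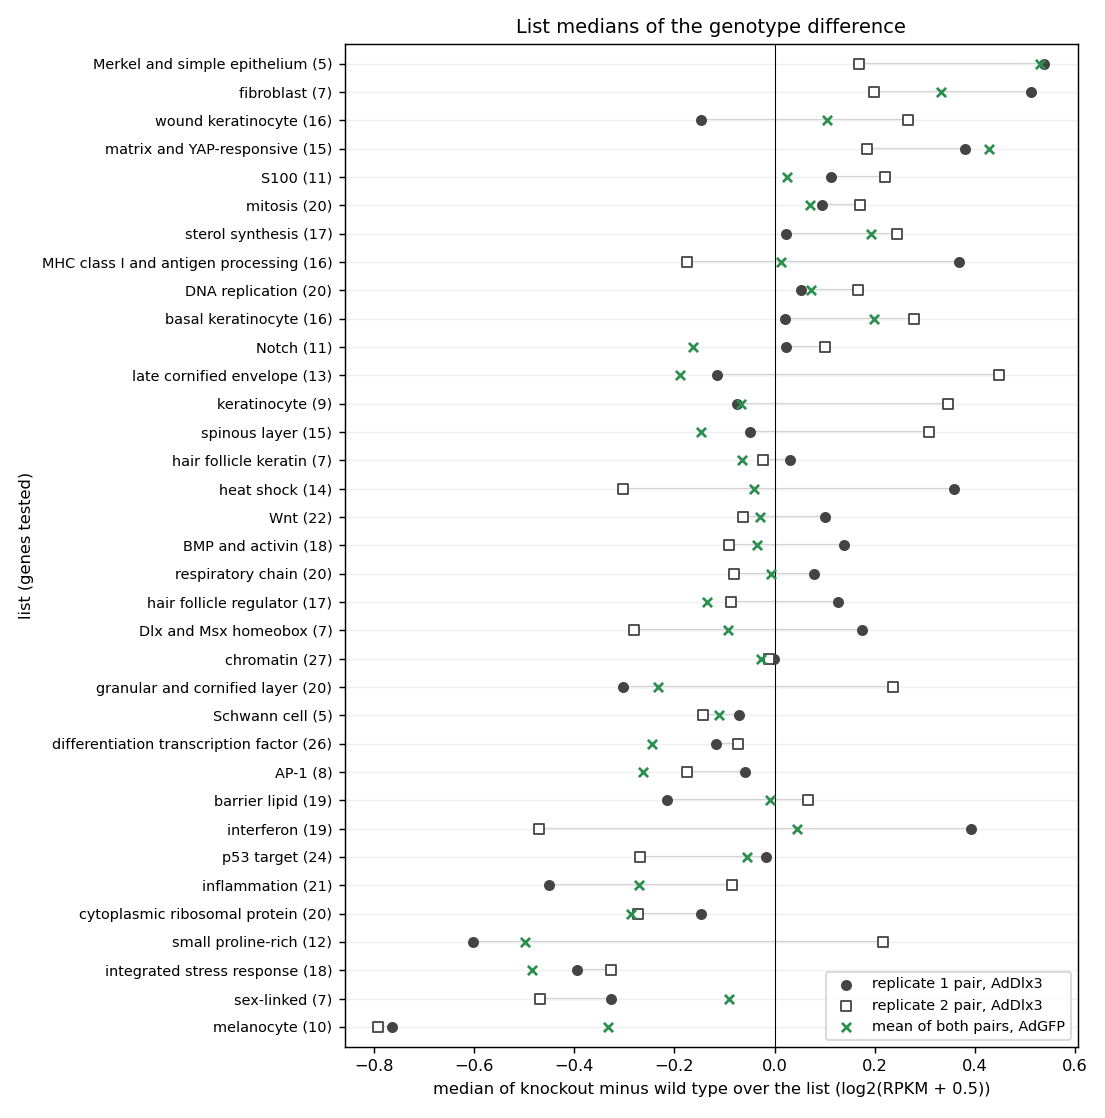
Median of knockout minus wild type (log2(RPKM + 0.5)) over each marker or gene list with at least 5 tested genes, in the replicate 1 pair (filled circle) and replicate 2 pair (open square) of the AdDlx3 libraries and as the mean of both AdGFP pairs (cross). Melanocyte markers have the lowest medians in both AdDlx3 pairs (-0.76 and -0.79), while the small proline-rich and interferon lists change sign between pairs.

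The keratinocyte lists gave no call. Basal keratinocyte genes had 2 of 16 with an unadjusted limma p under 0.05, both on the higher side. The basal keratin gene Krt5 read 4260 and 221 RPKM in wild-type and 3330 and 300 RPKM in knockout AdDlx3 cells. The gap between replicates was far wider than that between genotypes. Its difference of 0.04 had a 95% interval from -0.45 to 0.53. Of 15 spinous layer genes 0 had an unadjusted p under 0.05, and of 26 differentiation transcription factors 2 did, both lower: Rora and Ehf (-0.39 and -0.50).

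Of the 50 genes with the largest rise with AdDlx3 in both genotypes, limma called 0 between genotypes; 15 had an unadjusted p under 0.05 on the higher side (3.37% of all genes) and 2 on the lower side, with differences from -1.29 to 0.95. Krt28, from the hair follicle keratin list, was lower in knockout without overlap, at 2.2 and 4.63 RPKM against 1.94 and 1.47 RPKM. Its difference was -0.76 (limma adjusted p = 0.764), from -0.14 in pair 1 and -1.38 in pair 2. The 3 inner root sheath keratin genes given next overlapped between genotypes. Krt27, an inner root sheath keratin gene, read 92.3 and 30.1 RPKM in wild-type and 118 and 26.3 RPKM in knockout cells, a difference of 0.08 with a 95% interval from -0.27 to 0.43. Krt25, a related keratin gene, read 67.0 and 16.3 RPKM against 59.3 and 15.9 RPKM (-0.10, interval -0.39 to 0.19), and Krt71 read 25.1 and 5.55 RPKM against 28.7 and 5.78 RPKM. Myh2, a muscle myosin gene among the 6 largest rises, was higher in both pairs, at 9.29 and 31.6 RPKM against 27.7 and 40.9 RPKM (0.95 ± 0.25; 1.53 in pair 1 and 0.37 in pair 2).

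Over these 50 genes the median genotype difference was 0.49 in pair 1, where the knockout library had more Dlx3, and -0.05 in pair 2, where it had less. The 50 largest falls gave -0.27 and 0.27. These lists were chosen with the same libraries averaged over genotype. With 2 pairs, no relation to the level of Dlx3 was tested.

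**Figure D5:**
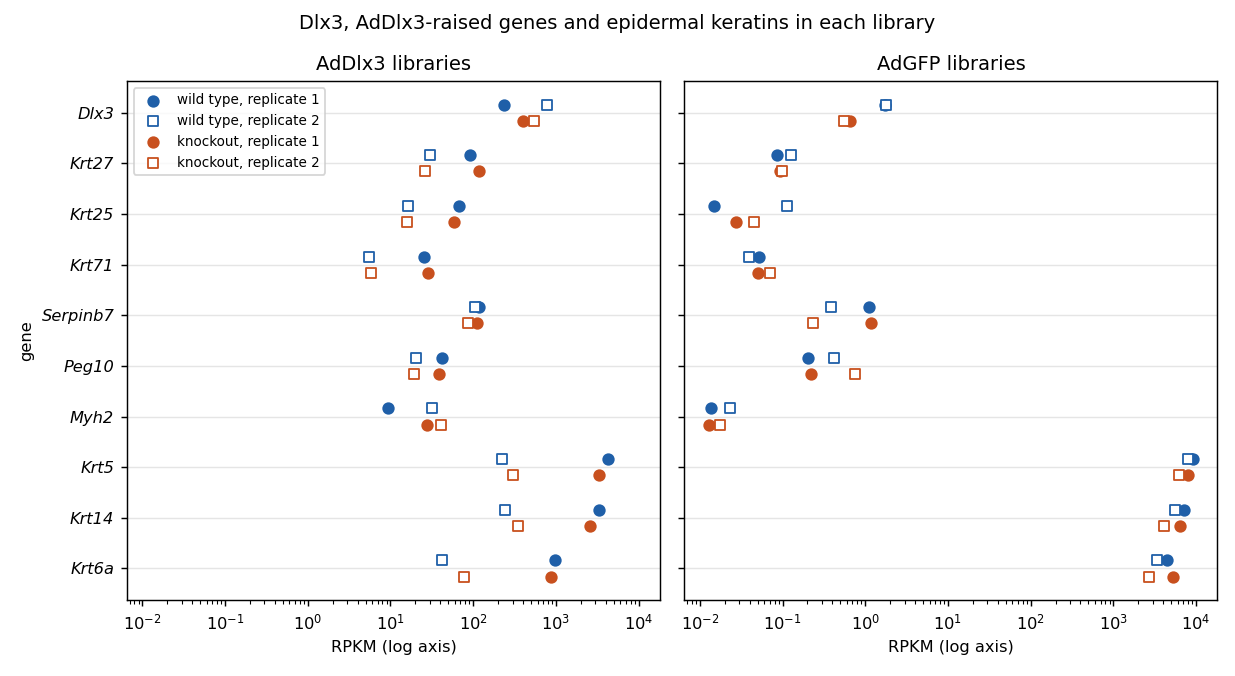
RPKM (log axis) of Dlx3, of genes raised by AdDlx3 and of epidermal keratin genes in each AdDlx3 library (left) and AdGFP library (right), coloured by genotype, with replicate 1 filled and replicate 2 open. For Krt5, replicates differ more than genotypes under AdDlx3, at 4260 and 3330 in replicate 1 and 221 and 300 in replicate 2. For Dlx3, the knockout replicates (402 and 539) lie closer together than the genotypes in replicate 1 (237 and 402).

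The genes that separated the genotypes most under AdGFP were followed into the AdDlx3 libraries, which they did not share. Of the 50 largest rises in knockout under AdGFP, 28 were higher in both AdDlx3 pairs (27.3% of all genes were) and the median was 0.33. Of the 50 largest falls, 30 were lower in both AdDlx3 pairs (28% of all genes) and the median was -0.38. Among those falls, Rn45s, the ribosomal RNA precursor, was among the 5 genes of 11855 (0.0422%) called under AdGFP in limma and read 1770 and 2130 RPKM in wild-type AdGFP and 424 and 355 RPKM in knockout AdGFP, but 351 and 510 against 436 and 419 RPKM with AdDlx3. Lars2 had the same pattern, at 282 and 219 against 55.8 and 49.9 RPKM with AdGFP and 62.3 and 112 against 70.2 and 85.3 RPKM with AdDlx3. Rn45s reads thus separated the genotypes under AdGFP, while under AdDlx3 the genotypes overlapped. The interaction of genotype and virus was not called for either gene (limma adjusted p = 0.108 for Rn45s and 0.0926 for Lars2). Whether these reads reflect the cells or the selection of polyadenylated RNA in each library was not tested.

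Among the homeobox genes related to Dlx3, Dlx5 was lower in knockout without overlap, at 1.13 and 1.02 against 0.748 and 0.583 RPKM (-0.44 ± 0.14, limma adjusted p = 0.721). Msx2, a further homeobox gene, read 25.6 and 17.4 RPKM against 31.6 and 12.5 RPKM. Of 110 tested genes within 5 Mb of Dlx3 on chromosome 11, 2 were higher and 11 lower without overlap, where 6.34% and 7.32% of all genes were, and the median was 0.02. Under AdGFP 24 of the 110 were lower without overlap, where 14.1% of all genes were, and 5 were higher. The B4galnt2 glycosyltransferase gene (2.46 and 1.69 against 0.965 and 1.23 RPKM, -0.68) had the lowest difference among the 4 named there by unadjusted p. Over all 110 the lowest was that of Krt28 (-0.76).

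The authors' deposited table of the same contrast, a model of the 4 groups, held 22 genes with q under 0.05, of which 0 were among the 11855 tested here. In the authors' deposited table Pmel and Ifi27l2b had fold changes of -2.09 and 4.97 with q of 1 each. Among the genes tested here 93 had a p under 0.05 in the authors' deposited table.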

How the data were processed

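Polyadenylated RNA was sequenced in 8 libraries, 2 from each of 4 groups; the kit was NEBNext Ultra II per the labels' protocols. Per the submitters' processing notes, the build was mm10 and the tools were TopHat2 2.1.1, bcl2fastq 2.20.0.422 and Partek, in no stated role. Annotation, counting rules and strand use: not given in the sources used here. RPKM values of 26202 genes were deposited by the authors. They also deposited a sample sheet with the batch and the count of alignments of each library, and a table of their own comparisons, which per the file headers holds log2 group means, p-values and q-values, a ratio and a signed fold change. The signed fold change is a score, deposited as the ratio or minus its inverse. Of the deposited RPKM values 2100 lie above 0 but below 1e-10, so whole reads were not recovered and no count test was run. Reads per gene are not known, and neither counting intervals nor floors are given.

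Values were changed to log2(RPKM + 0.5); fold changes on this scale understate those of low genes. The model, in limma 3.58.1 (R 4.3.3), had 4 groups and a replicate effect within each virus over all 8 libraries, with moderated variances that follow intensity (2 residual and 5.01 prior degrees of freedom). The threshold was a Benjamini-Hochberg adjusted p under 0.05 over the 11855 genes that reached 1 RPKM in at least 2 AdDlx3 libraries. Replicate numbers come from the titles and match the batches of the deposited sample sheet. Across genes, the deviations of libraries with the same number correlated at 0.88 between the AdDlx3 genotypes and at 0.79 between the AdGFP genotypes (0.35 to 0.61 across viruses), and no 2 libraries were identical. The fit was tested on simulated data.

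The genes, the 41 lists and the tests were chosen with earlier results of these data known, and 4 further lists after the values were seen. Named are Dlx3, genes past the threshold, then up to 12 per direction from genes whose libraries do not overlap, in order of the smaller pair difference (predicted models are only counted, 1 in each direction), up to 4 per list by unadjusted p, and up to 6 per derived list of 50; others given were chosen after their values were seen. Coordinates are from GENCODE M21 (GRCm38), promoters from RefSeq (GRCm38.p6). The alternatives were other replicate terms, pseudocounts, filters, scaling, variance trends and sets of libraries. Some measured genes are not reported here. Promoters of genes absent from the table used were not looked for.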

Additional observations from a re-analysis of the deposited data

How the results depend on the processing

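The main result, 2 genes past the threshold under AdDlx3, depended on the fit. With no replicate block, with a replicate block shared by both viruses, with a pseudocount of 0.1 RPKM, with no filter on low values, with a filter at 5 RPKM, with median-of-ratios scaling, with no intensity trend and with the 4 AdDlx3 libraries alone and no replicate block, limma called 0 genes; the smallest adjusted p in these fits ran from 0.0538 with no trend to 1 with no replicate block. Unadjusted p under 0.05 was then reached by 45 genes with no replicate block and by 154 with the shared block. The 4 AdDlx3 libraries alone with the replicate block gave 10 genes: Ifi27l2b, Acta2, Tagln and Fn1 higher, and Saa3, Pmel, Slc24a5, Mlana, Dct and Tyrp1 lower. Leaving out 1 library at a time gave 4 to 61 genes. Those fits without an AdDlx3 library rest on 1 pair and assume that it varies like the AdGFP pairs: without wild-type or knockout replicate 1, 4 each; without wild-type replicate 2, 60, and without knockout replicate 2, 61.

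For the genotype by virus interaction, 0 genes became 3 to 25 when 1 library was left out (25 without either replicate 2 AdDlx3 library). Under AdGFP, 5 genes became 0 with no replicate block, with the shared block and with no filter, and 8 to 70 when 1 library was left out. The difference of Dlx3 reversed to -0.54 without wild-type or knockout AdDlx3 replicate 1 and was 0.76 without either replicate 2. Over 25 named genes and 18 alternatives, 438 values were obtained: 376 kept direction and side of the threshold, 17 lost the call, 43 gained one and 2, both Dlx3, reversed. Median-of-ratios scaling moved the median of all genes by 0.02. The causes were not tested. With 2 pairs and no reads per gene, small differences of low genes were not detectable.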

Other observations

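Lists not described above had 0 calls under AdDlx3 in limma. Sterol synthesis genes were higher in both pairs for 9 of 17 and lower in both for 0, with a median of 0.13 and 0 at an unadjusted p under 0.05. S100 genes were higher in both pairs for 6 of 11 (median 0.19, 1 at an unadjusted p under 0.05), among them S100a10, a partner of annexin A2, at 618 and 616 against 830 and 719 RPKM. Of 16 wound keratinocyte genes 2 had an unadjusted p under 0.05 on the higher side and 1 on the lower side: the EGF receptor ligand genes Areg (2.27 and 20.2 against 3.08 and 31.2 RPKM) and Hbegf were higher in both pairs, and the collagenase gene Mmp13 (27.8 and 7.15 against 9.75 and 5.21 RPKM) was lower in both, with limma differences of 0.49, 0.43 and -0.94.

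Replication genes had 11 of 20 higher in both pairs (median 0.10; Mcm2 0.24), hair follicle regulators 3 of 17 with an unadjusted p under 0.05 (Cux1, 13 and 17.8 against 20.8 and 20.7 RPKM, Lgr6 and Tbx1, all higher), and barrier lipid genes 1 of 19. BMP and activin genes had 1 of 18, Wnt genes 2 of 22 in opposite directions, Notch genes 0 of 11, AP-1 genes 0 of 8, chromatin genes 0 of 27, respiratory chain genes 0 of 20 and hair follicle keratin genes 1 of 7 (Krt28, -0.76). Sebocyte markers summed to 139 and 99.5 RPKM in wild-type and 144 and 123 RPKM in knockout cells, endothelial markers to 6.23 and 5.94 against 8.97 and 5.60 RPKM, and no erythroid or fat cell marker reached the filter.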
